A study of Mus musculus with 4 samples.

Results

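The genes described here encode proteins of the azurophil (primary) granules of neutrophils, together with genes that mark the precursors which make those granules, and they were measured in whole spleen of wild-type (WT) mice and of mice lacking Snd1, an RNA-binding protein. The members are 10 genes listed by symbol, namely Mpo, Elane, Prtn3, Ctsg, Bpi, Ms4a3, Prss57, Fcnb, Lyz2 and Cst7, and every array probe annotated with one of these symbols was taken. Probes were found for 9 of the 10 genes. Prss57, which encodes a serine protease of the same granules, had no probe under that symbol in the annotation used. The 9 genes were among 16590 named by a probe, and they were represented by 15 of the 25697 probes on the Illumina MouseRef-8 v2.0 array, which reads RNA with oligonucleotides on beads.

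RNA was taken from 2 WT and 2 Snd1 knockout (KO) females of the C57BL/6N strain, untreated and 8 to 12 weeks old, with 1 array per sample. The legend of the study's array figure gives an age of 8 weeks. The KO mice carried a germline deletion of the first exon of Snd1. The exon was flanked with loxP recombination sites in 129/Sv embryonic stem cells. Mice derived from these cells were crossed with mice making Cre recombinase from the ubiquitous CAG promoter, which deleted the exon. The deleted line was then crossed back to C57BL/6N, and all animals came from heterozygous parents. Part of each spleen was homogenised whole, so every value is an average over all cells of the organ, and a smaller number of granule-forming cells and less of the RNA per cell cannot be told apart. The samples are described as biological duplicates. The small number of arrays, 4 in all, limits how precise any value here can be, and the p-values measure only the spread between these samples.

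Azurophil granules are the first granules that a developing neutrophil makes. Their genes are transcribed at the promyelocyte stage and are shut off as the cell matures, so the RNA marks precursors, whereas the stored protein persists in the circulating neutrophil. In adult mice these precursors reside chiefly in the bone marrow, and the red pulp of the mouse spleen keeps a smaller granulocyte-forming compartment. The granule holds a peroxidase that makes hypochlorous acid, a set of serine proteases of the chymotrypsin fold that digest microbes and matrix, and small antimicrobial proteins.

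Signals are given as deposited, on a linear scale without background correction. Differences are given on a log2 scale after background correction with an offset of 16 and quantile normalization, where a difference of 1 is a doubling. Detection on an array meant a deposited detection value, which is high for bright probes, above 0.95. The 12493 probes detected on both arrays of a group, 12 of the 15 member probes among them, were compared between the groups with limma, with p-values adjusted over all 12493. In that fit 2 probes passed an adjusted p of 0.05, which is 0.0160% of those tested, and these were the liver protease inhibitor genes Serpina1b and Serpina1d, which are no members (adjusted p = 0.0403 for both, higher in KO). Exact permutation of the group names over 4 arrays reaches no p below 0.333 and was not used.

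Between 12396 and 12908 probes were detected per array, and the arrays correlated with each other at 0.972 to 0.984 over all tested probes. The Snd1 probe, whose place relative to the deleted exon is not known here, read 6.71 and 7.09 on the WT arrays and 4.45 and 4.58 on the KO arrays (log2 intensity). It was not well above background on either KO array, which made Snd1 at least 3.87-fold lower there. The fitted log2 difference without that bound was -2.39 (limma adjusted p = 0.0869), for a probe tested only through the WT arrays. Of the markers of spleen lymphocytes, 8 of 9 were detected on every array. Both KO arrays also read genes of other tissues. The pancreatic amylase Amy2a5 read 9.19 on KO replicate 1 against 4.30 to 4.44 elsewhere, the fat hormone Adipoq read 9.69 on KO replicate 2 against 4.69 to 5.18, and of 13 liver genes 10 were detected on each KO array against 3 and 2 on the WT arrays. Their part in the results below was not tested.

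The promoters of the peroxidase gene and of the 3 serine protease genes with a probe are shown because these 4 genes had the lowest KO means relative to WT. Each window holds the 250 bases before the gene's start in the RefSeq annotation of GRCm38.p6, read along the gene's own strand. Mpo lies at chr11:87793534-87793783 on the plus strand, Elane at chr10:79886062-79886311 and Prtn3 at chr10:79879417-79879666 on the plus strand, and Ctsg at chr14:56102575-56102824 on the minus strand. Capitals mark the core GAGGAA, bound by the myeloid factor PU.1, and the core AACNG, bound by MYB, each on either strand.
Mpo: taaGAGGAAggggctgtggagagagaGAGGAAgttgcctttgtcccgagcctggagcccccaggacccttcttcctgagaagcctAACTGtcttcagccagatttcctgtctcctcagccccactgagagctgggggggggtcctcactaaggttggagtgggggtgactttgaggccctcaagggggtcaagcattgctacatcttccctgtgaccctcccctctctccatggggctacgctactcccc
Elane: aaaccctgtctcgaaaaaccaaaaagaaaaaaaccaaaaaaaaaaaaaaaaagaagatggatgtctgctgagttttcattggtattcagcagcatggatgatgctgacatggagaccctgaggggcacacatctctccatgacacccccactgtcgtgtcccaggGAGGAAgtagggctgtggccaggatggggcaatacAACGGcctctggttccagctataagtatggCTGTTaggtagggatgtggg
Prtn3: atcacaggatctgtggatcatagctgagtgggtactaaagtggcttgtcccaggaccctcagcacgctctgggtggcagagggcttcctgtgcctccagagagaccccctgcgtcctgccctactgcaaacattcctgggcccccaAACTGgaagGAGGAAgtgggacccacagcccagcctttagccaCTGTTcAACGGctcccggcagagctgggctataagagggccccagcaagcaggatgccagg
Ctsg: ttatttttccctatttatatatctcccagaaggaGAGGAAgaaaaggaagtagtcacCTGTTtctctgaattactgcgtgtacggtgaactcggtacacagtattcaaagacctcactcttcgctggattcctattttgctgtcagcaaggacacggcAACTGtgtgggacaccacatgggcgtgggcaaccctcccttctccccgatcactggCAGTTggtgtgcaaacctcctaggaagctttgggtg

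GAGGAA, or its reverse complement, was present in the windows of 5 of the 9 members that have one (Mpo, Elane, Prtn3, Ctsg and Bpi), against 23.3% of the 32851 windows of the same length in the annotation. In Elane its first base lay 85 bases before the start and in Prtn3 95 bases before it. In Mpo it occurred at 247 and 224 bases before the start and in Ctsg at 216. AACNG was present in 8 of the 9 windows, all but that of Ms4a3, but also in 74.2% of all windows. The RUNX core TGTGGT was found in 3 of the 9 windows (Ctsg, Lyz2 and Cst7), against 14% of all windows, and the C/EBP palindrome TTGCNNCAA in 1 (Ms4a3, 140 bases before the start), against 1.74%. These matches describe the letters of the windows and show no binding.

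Over the members, the KO spleens gave lower signals of the peroxidase, the serine proteases, Ms4a3 and Fcnb, and the same pattern was not seen for Lyz2 and Cst7. Of the 12 tested member probes, 7 were detected on all 4 arrays, namely the brightest Mpo probe, the probes of Elane, Prtn3, Ctsg and Cst7 and the 2 brighter Lyz2 probes. Both KO values lay below both WT values for 4 of these 7, against 18.4% of the 11399 probes detected on all arrays, and the 4 were Mpo, Elane, Prtn3 and Ctsg. The KO mean was lower for 6 of the 7, against 51.9% of those probes, and at least 2-fold lower for 4, against 0.219%. The 2-fold count depended on the background correction. Without that correction the log2 differences were -1.14 for Mpo, -0.92 for Elane, -0.88 for Prtn3 and -0.65 for Ctsg, so only Mpo stayed at least 2-fold lower. An unadjusted limma p under 0.05 with a lower KO mean was reached by 3 of the 7 (Mpo, Elane and Prtn3), against 2.48%.

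The other 5 tested probes (the 2 dimmer Mpo probes, the brighter Ms4a3 probe and both Fcnb probes) were tested only because both WT arrays detected them. The filter thus favoured a lower KO mean, and counts that hold these probes are given only as a description. Over all 12 the KO mean was lower for 11, against 51.1% of all tested probes, and at least 2-fold lower for 5, against 0.304%. Both KO values lay below both WT values for 9, against 18.5%, and 8 reached an unadjusted limma p under 0.05 with a lower KO mean, against 2.78%. None of the 12 passed the adjusted threshold, with limma adjusted p from 0.771 to 0.966. The study named Mpo, Elane and Prtn3 as lower on these same samples, so the direction of those 3 genes is not independent evidence. It also measured them by quantitative PCR in a larger set of female spleens and reported that the differences held.

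**Figure D1:**
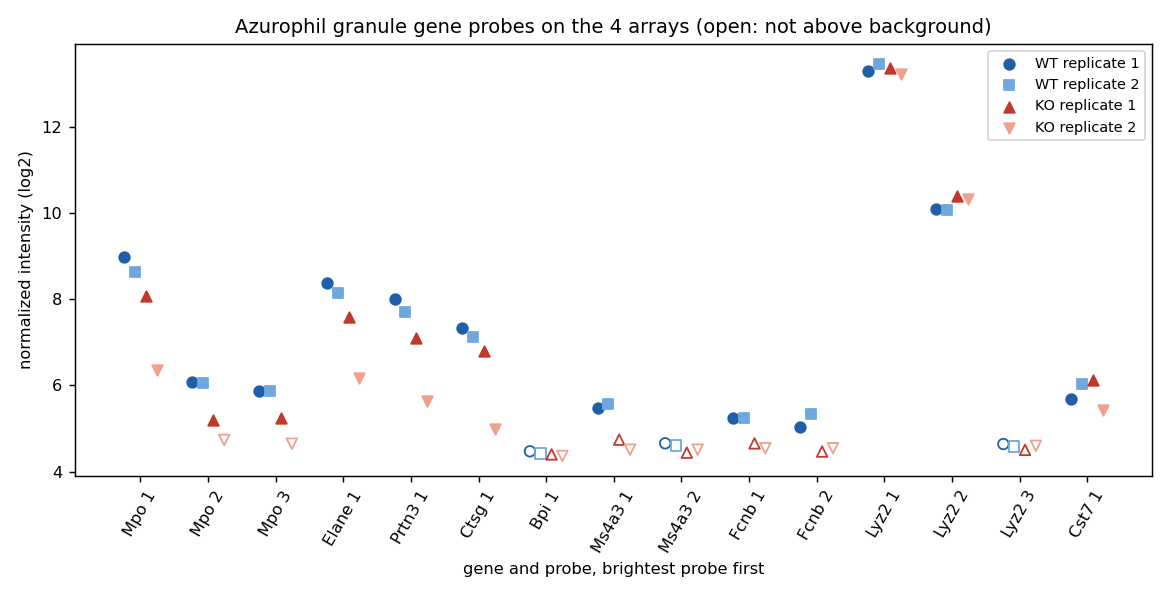
Normalized log2 intensity (vertical axis) of each of the 15 member probes (horizontal axis, grouped by gene) on the 4 arrays, with circles and squares for the WT and triangles for the KO replicates and open symbols where the probe was not detected. For Mpo, Elane, Prtn3 and Ctsg both KO triangles lie below both WT symbols and KO replicate 2 lies lowest, whereas the brightest Lyz2 probe reads 13.22 to 13.46 on all 4 arrays.

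Mpo encodes myeloperoxidase, the haem peroxidase of the azurophil granules that makes hypochlorous acid. Its brightest probe gave signals of 574.0 and 461.9 on the WT arrays and 352.8 and 168.9 on the KO arrays. Both WT values were above both KO values, and KO replicate 2 was far below the other 3 arrays. After normalization the log2 intensities were 8.97 and 8.63 in WT and 8.06 and 6.35 in KO, a group mean of 8.80 ± 0.24 (SD, n = 2) against 7.21 ± 1.21 (SD, n = 2). The KO mean was lower by 1.59 ± 0.57 (SE), or 3.01-fold (limma adjusted p = 0.771, 95% interval of the log2 difference -3.04 to -0.14). The difference ranked 13th from the bottom of all tested probes.

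The other 2 Mpo probes were much dimmer and gave the same order of the groups. One read 150.2 and 146.0 in WT and 119.3 and 107.7 in KO, and its log2 difference was -1.09 ± 0.20 (SE). The other read 141.6 and 139.1 in WT and 120.4 and 104.8 in KO, with a difference of -0.93 ± 0.23 (SE). Both were detected on both WT arrays and on KO replicate 1 but not on KO replicate 2. The 3 Mpo probes agreed in direction, and in each of them the gap between the KO replicates was larger than that between the WT replicates.

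Elane encodes neutrophil elastase, a serine protease that cleaves elastin and bacterial outer membrane proteins. Its single probe gave signals of 412.0 and 353.0 in WT and 275.9 and 158.0 in KO. The normalized log2 intensities were 8.38, 8.14, 7.57 and 6.16 in the same order. The groups did not overlap, and KO replicate 2 again stood lowest. The KO mean was lower by 1.39 ± 0.47 (SE), or 2.63-fold (limma adjusted p = 0.771, unadjusted p = 0.0311).

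Prtn3 encodes proteinase 3, a close relative of elastase and the target of autoantibodies in human small-vessel vasculitis. Its probe gave signals of 339.0 and 282.1 in WT and 220.6 and 135.5 in KO, which normalized to log2 intensities of 8.01, 7.71, 7.10 and 5.64. Every KO value was below every WT value. The KO mean was lower by 1.49 ± 0.49 (SE), or 2.81-fold (limma adjusted p = 0.771, unadjusted p = 0.0280). Prtn3 and Elane lie on chromosome 10 and are neighbours in the annotation.

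Ctsg encodes cathepsin G, a protease with chymotrypsin-like specificity. It gave signals of 242.6 and 215.4 in WT and 194.3 and 115.2 in KO, or log2 intensities of 7.34, 7.11, 6.79 and 4.98. KO replicate 1 was close below the WT arrays, and KO replicate 2 was at the edge of detection, with a detection value of 0.952 against the limit of 0.95. The KO mean was lower by 1.34 ± 0.59 (SE), or 2.53-fold (limma adjusted p = 0.771), and the 95% interval of the difference, -2.85 to 0.18, included 0. Of the 6 genes around Ctsg in its protease cluster on chromosome 14, which include the mast cell and basophil proteases Mcpt4 and Mcpt8 and 3 granzymes, only Mcpt9 had a tested probe, with a KO mean higher by 0.26 (limma adjusted p = 0.771). The WT mean of Mcpt9, 4.79, lay below the dimmest detected values of the WT arrays (4.99 and 5.03). Mcpt9 was thus tested only through the KO arrays, and that filter favoured a higher KO mean.

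**Figure D2:**
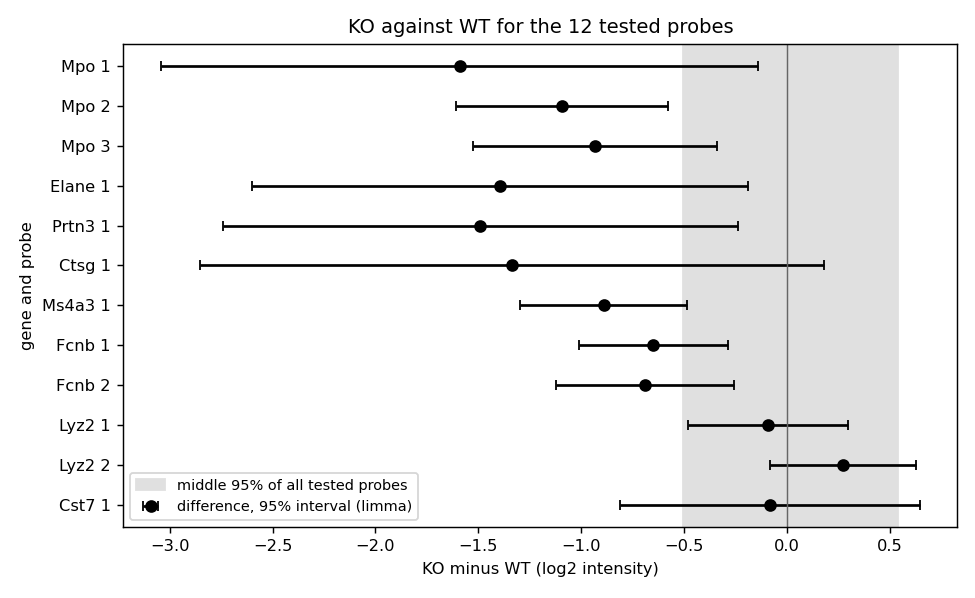
KO minus WT difference in log2 intensity (horizontal axis) of the 12 tested member probes, with points for the limma estimate, bars for its 95% interval and a grey band for the middle 95% of all tested probes. The Mpo, Elane, Prtn3, Ctsg, Ms4a3 and Fcnb points lie to the left of the band, which ran from -0.50 to 0.54, and the Lyz2 and Cst7 points lie inside it.

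Bpi encodes the bactericidal/permeability-increasing protein, which binds the lipopolysaccharide of Gram-negative bacteria. Its probe gave signals of 99.2 and 95.1 in WT and 93.8 and 91.7 in KO and was detected on no array. Bpi was thus not well above background in either group, and the probe was not tested.

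Ms4a3 encodes a membrane-spanning protein that is made in granulocyte and monocyte progenitors and is widely used to trace their descendants in mice. Its brighter probe gave signals of 127.4 and 128.5 in WT and 107.1 and 99.6 in KO, or log2 intensities of 5.47, 5.56, 4.74 and 4.51. Both WT arrays detected it and neither KO array did. Ms4a3 was therefore at least 1.48-fold lower in KO, a bound set against the dimmest detected signal of each KO array. The fitted difference without that bound was -0.89 (limma adjusted p = 0.771, unadjusted p = 0.00237). The probe was tested only through the WT arrays, which favoured a lower KO mean, so these p-values are given only as a description. The second Ms4a3 probe, with signals of 106.1, 102.7, 95.9 and 99.6, was detected on no array and was not tested.

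Fcnb encodes ficolin B, a lectin of the complement system that mouse myeloid precursors make. One of its probes gave signals of 121.2 and 119.7 in WT and 104.4 and 101.0 in KO, and the other gave 116.1 and 122.0 in WT and 97.1 and 101.1 in KO. Both probes were detected on both WT arrays and on neither KO array. The bounds were at least 1.23-fold and at least 1.18-fold lower in KO. The fits without these bounds gave limma adjusted p = 0.771 for both and unadjusted p = 0.00572 and 0.00943. Both probes were tested only through the WT arrays, so these p-values too are only a description. Fcnb and Ms4a3 were dim even in WT, and their fitted log2 differences of -0.65, -0.69 and -0.89 are drawn from signals close to the background.

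Lyz2 encodes the lysozyme of myeloid cells, which cleaves bacterial peptidoglycan and, unlike the proteases above, is also made in abundance by monocytes and macrophages. Its brightest probe gave signals of 10606.7 and 11253.0 in WT and 9933.2 and 9320.3 in KO. The normalized log2 intensities were 13.29, 13.46, 13.35 and 13.22, so the groups overlapped. The difference was -0.09 ± 0.15 (SE), with a 95% interval of -0.48 to 0.30 (limma adjusted p = 0.928).

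The second Lyz2 probe ran the other way. Its signals were 1145.7 and 1122.7 in WT and 1425.5 and 1427.6 in KO, and both KO values were above both WT values. The log2 difference was 0.27 ± 0.14 (SE), with a 95% interval of -0.08 to 0.63 (limma adjusted p = 0.771). The third probe, with signals of 105.6, 101.8, 98.8 and 103.1, was detected on no array, so the 3 probes of Lyz2 did not give 1 answer. The neighbouring gene Lyz1 is a near copy of Lyz2, and how far their probes share RNA is not known here. Its mean log2 intensity was 14.42 in WT and 14.47 in KO.

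Cst7 encodes cystatin F, an inhibitor of the peptidase that activates the granule serine proteases, and is also expressed in natural killer and cytotoxic T cells. Its probe gave signals of 134.4 and 145.3 in WT and 153.3 and 128.0 in KO, with log2 intensities of 5.68, 6.03, 6.12 and 5.42. KO replicate 1 was the highest of the 4 arrays and KO replicate 2 the lowest. The difference was -0.08 ± 0.28 (SE), with a 95% interval of -0.81 to 0.65 (limma adjusted p = 0.966).

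Taking each of the 9 genes by its brightest probe, tested or not, the median KO minus WT difference was -0.89 on the log2 scale, against -0.0038 over all probes on the array. That median is the value of Ms4a3, which neither KO array detected, and with Ms4a3 and Fcnb set to their bounds it was -0.56. Over the 6 genes whose brightest probe was detected on all 4 arrays it was -1.37, with the 2 genes Lyz2 and Cst7 far from the other 4. The 7 genes whose KO values lay below both WT values were Mpo, Elane, Prtn3, Ctsg, Bpi, Ms4a3 and Fcnb, and Bpi was not above background. Without background correction the median over the 9 genes was -0.32, and with an offset of 50 it was -0.44. Both settings again gave 9 tested member probes with both KO values below both WT values. That count is only a description, because the tested probes include those tested only through the WT arrays.

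For Mpo, Elane, Prtn3 and Ctsg the KO arrays lay further apart than the WT arrays. Over all tested probes, however, the KO arrays were the pair that correlated best (0.984) and the WT arrays the pair that correlated least (0.972). KO replicate 2 was below KO replicate 1 for all 7 member probes detected on every array, against 47.7% of such probes. The brightest Lyz2 probe, the second Fcnb probe and the Bpi probe, which no array detected, had the wider gap in WT. The gap reached 1.81 in Ctsg and was 1.71 in Mpo, 1.46 in Prtn3 and 1.41 in Elane, whereas no member's WT arrays differed by more than 0.35. Of the 15 member probes, 12 were detected on each WT array, 9 on KO replicate 1 and 7 on KO replicate 2.

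The size of the difference therefore depended on which KO array was used. Against the WT mean, KO replicate 1 alone put Mpo lower by 0.73, Elane by 0.69, Prtn3 by 0.76 and Ctsg by 0.43 on the log2 scale. KO replicate 2 alone gave differences of -2.45, -2.10, -2.22 and -2.24 for the same genes. Ms4a3 and Fcnb were not detected on either KO array, so the order of the KO arrays cannot be read for them. Cst7 changed sign, with 0.27 from KO replicate 1 and -0.43 from KO replicate 2. The genes of other tissues also differed between these arrays, with Amy2a5 high on KO replicate 1 and Adipoq on KO replicate 2, and their part in this gap was not tested.

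**Figure D3:**
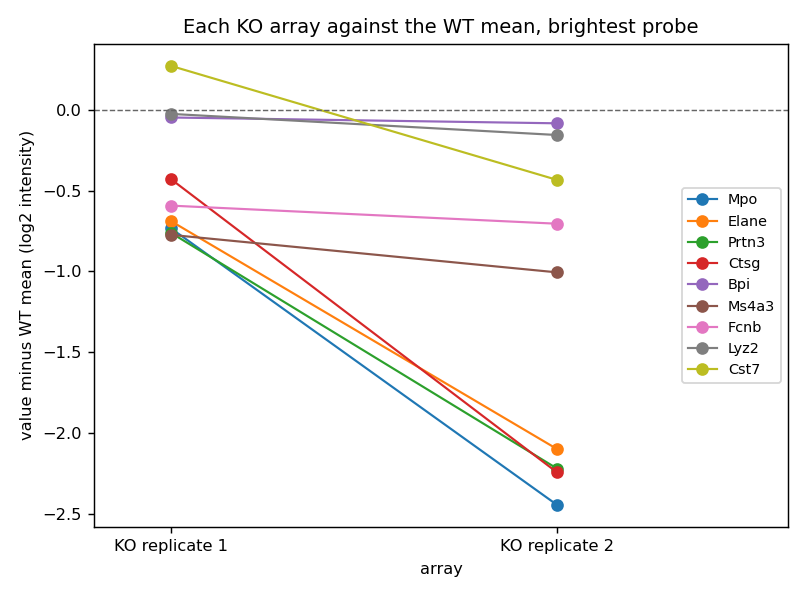
Value on each KO array minus the WT mean in log2 intensity (vertical axis) for the brightest probe of each of the 9 genes, with 1 coloured line per gene joining KO replicate 1 and KO replicate 2. The 4 lines of Mpo, Elane, Prtn3 and Ctsg run from between -0.76 and -0.43 on KO replicate 1 to between -2.45 and -2.10 on KO replicate 2, Lyz2 stays near 0, and the lines of Bpi, Ms4a3 and Fcnb, detected on neither KO array, have no order.

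Genes that handle the granule proteases showed no common direction. Of 8 such genes, 5 were tested and none passed the adjusted threshold, with a median difference of 0.024 over the 8. Ctsc, the peptidase that activates elastase, proteinase 3 and cathepsin G by removing an amino-terminal dipeptide, read 11.61 and 11.73 in WT and 11.95 and 12.07 in KO (difference 0.34). Slpi, a secreted inhibitor of elastase and cathepsin G, read 10.77 and 10.51 in WT and 11.72 and 11.59 in KO (difference 1.01, limma adjusted p = 0.771). Serpinb1a, an intracellular inhibitor of the same proteases, read 8.72 and 8.84 in WT and 7.63 and 8.27 in KO (difference -0.83). Slpi and Ctsc were thus higher on both KO arrays than on both WT arrays and Serpinb1a lower, while neither Slpi nor Serpinb1a is restricted to promyelocytes.

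Other proteins stored in azurophil granules or placed in their membrane, most of them lysosomal enzymes that many cell types make, were divided between the directions. Of 15 such genes with a probe, 7 had a lower and 8 a higher KO mean, with a median of 0.020. None of the 14 tested passed the adjusted threshold. Ctsd, an aspartic protease of lysosomes, differed by -0.31, Unc13d, which primes granules for release, by -0.35, and Hexa, a hexosaminidase subunit, by -0.25.

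Genes of the secondary granules, which the neutrophil makes at the later myelocyte stage, gave a median of -0.38 over 15 genes. Of these 11 had a lower KO mean, against 51.4% of all probes on the array. Of the 9 tested, 7 had both KO values below both WT values, against 18.5% of all tested probes. None of the 9 passed the adjusted threshold. Camp, the precursor of the antimicrobial peptide cathelicidin, read 10.37 and 9.88 in WT and 9.15 and 7.41 in KO (difference -1.84). Ngp, a cystatin-like granule protein, read 9.66 and 9.53 in WT and 8.53 and 7.02 in KO (difference -1.82). The study displays Camp and Ngp among the lower genes of these samples, and their direction is likewise no independent evidence. The study's quantitative PCR also included Camp and Ngp. In both genes, as in the azurophil proteases, KO replicate 2 was the lowest array. Chil3, a chitinase-like protein that macrophages also make, read 8.70 and 8.78 in WT and 7.40 and 6.96 in KO (difference -1.56, limma adjusted p = 0.491).

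Genes of mature neutrophils went in both directions, with a median of -0.028 over 10 genes, and none of the 9 tested passed the threshold. Both KO values lay below both WT values for 3 of them (S100a8, S100a9 and Retnlg) and above for 2, Slpi (difference 1.01) and Fpr2, a receptor for formyl peptides (difference 0.56), against 18.5% and 19.4% of all tested probes. S100a8, a calcium-binding protein that fills the neutrophil cytosol, read 12.95 and 12.75 in WT and 12.34 and 11.45 in KO (difference -0.95, a gene the study also displays as lower), and Retnlg, a resistin-like protein, differed by -0.68. Among granulocyte transcription factors the median over 9 genes was -0.0068. Spi1, which encodes PU.1, differed by 0.41, Cebpb by 0.42 and Etv6 by -0.31, and none of the 8 tested passed the threshold. Haematopoietic progenitor genes gave a median of -0.023 over 9 genes, of which 3 were tested. Cd34, a surface marker of progenitors, differed by 0.38, Meis1 by 0.20 and Gata2 by 0.07.

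Cell types that share single members with the neutrophil precursors were checked in the same way, beside the Lyz2 and Cst7 results. Monocyte genes had a median of -0.061 over 9 genes. That median is the value of Vcan, which no array detected, nor was Ms4a6c, Ms4a4c, Ccr2 or Nr4a1 detected. All 4 tested monocyte genes had a lower KO mean, and none passed the adjusted threshold. The differences were -0.22 for Clec4a1, -0.23 for Ly6c1, -0.35 for Cx3cr1 and -0.42 for F13a1, a coagulation factor subunit of monocytes. Both KO values lay below both WT values in 3 of these 4, against 18.5% of all tested probes. Macrophage genes had a median of -0.0087 over 11 genes, and Adgre1, which encodes the macrophage antigen F4/80, differed by 0.83 (limma adjusted p = 0.771). Natural killer and cytotoxic T cell genes, which share Cst7, had a median of 0.046 over 11 genes, and their per-array medians against WT were 0.14 on KO replicate 1 and -0.09 on KO replicate 2. Basophil and mast cell genes, relatives of Ctsg among them, had a median of 0.053 over 10 genes, and Mcpt4, Mcpt8, Ms4a2 and Tpsb2 were detected on no array. The part of these cell types in the member values was not tested.

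**Figure D4:**
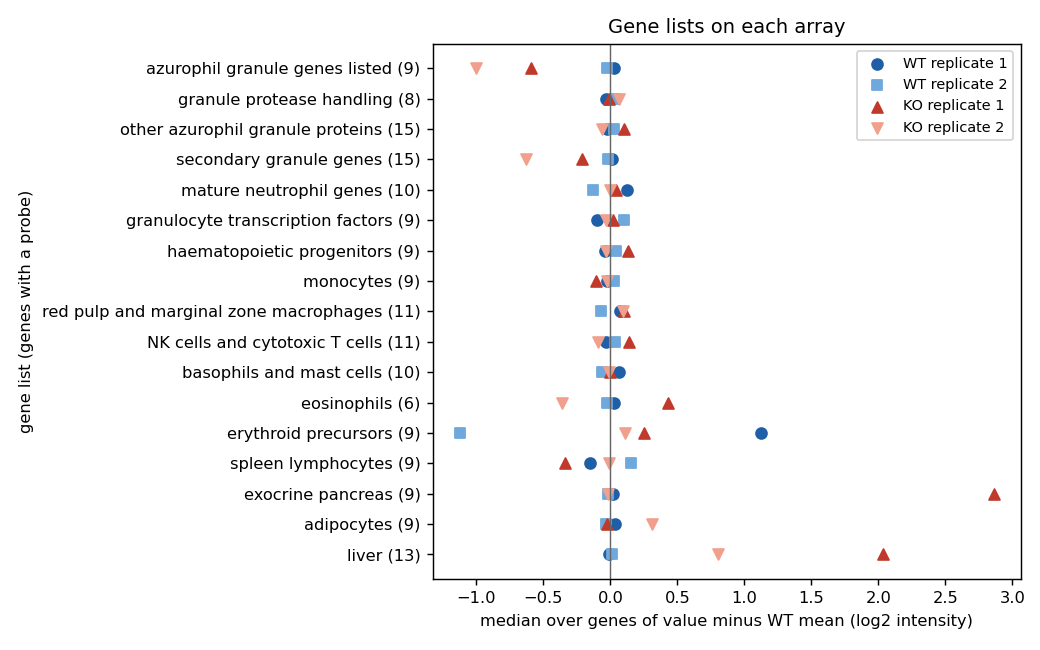
Median over each gene list of the value minus the WT mean in log2 intensity (horizontal axis), by array, with the number of genes with a probe in brackets. The medians of the member genes, -0.59 on KO replicate 1 and -1.01 on KO replicate 2, fall on Fcnb and Ms4a3, which those arrays did not detect, while pancreas genes stand out on KO replicate 1, liver genes on both KO arrays (2.04 and 0.80), and erythroid genes differ between the WT arrays.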

How the data were processed

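Total RNA from 2 WT and 2 KO spleens was hybridised to Illumina bead arrays. The authors exported probe intensity values from GenomeStudio, and the deposited signals are linear and not normalized. Detection columns were deposited as a fraction headed as a p-value, but they rise with the signal (rank correlation 0.975 to 0.991) and were read as 1 minus p. A second table deposited by the authors holds log2 values, with scale, centring and direction unstated. Every column has a median of 6.82, and for 25696 of 25697 probes the values equalled log2 of the quantile normalized signals, so it is uncentred and has no direction.

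Here signals were corrected with neqc (normexp with negative controls inferred by way of the detection values, offset 16, then quantile normalization) in limma 3.58.1 (R 4.3.3). Testing was limited to probes that both arrays of 1 group or the other detected, with lmFit and eBayes (2 residual, 5.04 total degrees of freedom) and Benjamini-Hochberg adjustment at 0.05, and the code was tested on simulated data. Of the probes 23978 had 1 symbol and 1719 had none, and 8 symbols were updated. Gene order and promoters came from GRCm38.p6 RefSeq tables, where 9 of 10 members had a promoter window. The files name no build. Only the bases before the start were used.

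For a gene not above background on both arrays of a group, "at least" folds set the dim probe, on each such array, to the dimmest detected signal or to its own value, whichever was larger. Genes in a list are represented by their brightest probe. All member probes, Snd1, Amy2a5, Adipoq and up to 3 tested genes of smallest p per list were named, and any other gene named was chosen after its values were seen. Members and lists were chosen with earlier results of these data known. Same-numbered WT and KO arrays deviated together with r = 0.188 over probes in the 1 comparison possible, but no source names pairs, so the fit was unpaired. Alternatives were no background correction, an offset of 50, median scaling, the authors' value table, no filter, a stricter filter, a trended robust prior, array weights, an unmoderated test, a replicate block, averaging a gene's probes and leaving out each array. Slide and scan batch, for which the sources used here give nothing, were not tested.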

Additional observations from a re-analysis of the deposited data

How the results depend on the processing

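No member passed the adjusted threshold in the main limma fit, where 347 probes were lower and 414 higher at an unadjusted p under 0.05. The count of all probes past the adjusted threshold was 2, and it became 0 without background correction, 4 with an offset of 50, 0 in the authors' value table, 0 with no filter, 8 with a trended robust prior, 0 with the unmoderated test, and 0 to 16 when single arrays were left out, with 16 without WT replicate 1 and 0 without each of the others. With a replicate block it was 0. Where 1 array was left out, the lone array of its group is assumed to vary like the other group. The cause of these shifts was not tested. Of 214 single member values over 15 settings, 205 kept their direction and their side of the threshold, or their value where untested. Another 6 moved by more than the replicate spread, and 3 changed sign. The moves were in the untested Bpi probe, the untested second Ms4a3 probe and Ms4a3 with its probes averaged (-0.52 against -0.89). The sign changes were Cst7 without WT replicate 2 (0.10) and without KO replicate 2 (0.27), in a range of -0.43 to 0.27 over single arrays left out, and the brightest Lyz2 probe's gene when all its probes were averaged (0.041). Of the 214 values, those under another filter, prior, weighting, test or block could not change direction, because these settings left every difference unchanged. A tested value also counted as kept at any size unless probes were averaged. An example is 1 dimmer Mpo probe, at -0.40 without background correction against -1.09. The median over the 9 genes ran from -1.01 to -0.59 over single arrays left out and was -0.67 with probes averaged. The count of tested member probes with both KO values below both WT values, an alternative summary chosen after seeing the data, ran from 9 to 11. It too is only a description, because it was taken over probes that include those tested only through the WT arrays. Ms4a3, Fcnb, Bpi and the dim Mpo probes lie close to background, which limits what their signals can show.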

Other observations

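Genes that lie beside the members on the chromosomes were compared in the same way. Taking 3 protein-coding genes on each side of every member in the GRCm38.p6 annotation, a set chosen after values were seen, 24 tested genes that are no members had a median KO minus WT difference of 0.07 on the log2 scale, with a range of -0.35 to 0.56. Of these 7 had a lower KO mean, against 51.1% of all tested probes, 2 had both KO values below both WT values, against 18.5%, and 7 had both above, against 19.4%. Mcpt9, among those with both above, was tested only through the KO arrays. Around Prtn3 and Elane, the tested neighbours Ptbp1, a splicing regulator, and Med16, a Mediator subunit, differed by 0.018 and 0.21. Epx, the eosinophil peroxidase gene that lies near Mpo, differed by 0.04, and Lpo, the lactoperoxidase gene next to Mpo, had no tested probe.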
